A study of Homo sapiens with 90 samples.

Results

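A673 cells exposed to 10 µM of the herbicide 2,4-D were compared with A673 cells that received only the vehicle, DMSO. The comparison holds 6 of the 90 arrays in the series, 3 for 10 µM 2,4-D and 3 for DMSO, and the labels alone placed an array in it. The 2,4-D arrays are those titled as treated at 10 µM, and the DMSO arrays are the vehicle columns that were normalized together with the 2,4-D arrays. A673 is an established line from a single Ewing sarcoma that carries the EWSR1-FLI1 fusion, so the results describe 1 line and no tissue. Cells were plated at 26000 per well, every well held 0.2% DMSO, and RNA was taken after 24 h of exposure. According to the methods, the 3 replicates were separate experiments on separate batches of cells. The rest of the series holds 8 lower concentrations of 2,4-D and 2 azole fungicides, imazalil and fenbuconazole, each with its own vehicle columns. The RNA came from whole wells, so fewer cells of a kind and less RNA per cell cannot be told apart.

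In plants, 2,4-D acts as a synthetic auxin: it joins the F-box protein TIR1 to its Aux/IAA substrates, which are then marked by an SCF ubiquitin ligase and destroyed. Animal cells have SCF ligases and F-box proteins with leucine-rich repeats but no TIR1. In mammals the compound is a carboxylic acid carried by albumin and by organic anion transporters. In rodent liver, related phenoxy acids are known as weak peroxisome proliferators, which act through the nuclear receptor PPARA on genes of fatty acid oxidation. These routes, together with general stress, endocrine and proliferation programmes, gave the gene lists that are read below.

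Expression was read on Affymetrix HT HG-U133+ PM arrays as log2 levels, 1 per probe set, and a probe set is a group of probes for the same transcript. Levels in the 30 arrays of the 2,4-D set ran between 1.94 and 13.6, and the medians of the arrays lay between 3.40 and 3.46. A mean level of 5 or more over the 30 arrays was taken as clearly measured, which held for 18626 of 54613 probe sets (34.1%) and for 9595 of 19774 genes. Of the markers of A673, 8 of 9 measured were at 5 or more, with the surface protein CD99 at 12.50 and FATE1 lowest at 3.11. Hepatocyte markers reached that level in 1 of 12 (AHSG, 5.57), epithelial markers in 0 of 10, and blood and endothelial markers in 0 of 8. The mean level of the hepatocyte list was between 3.23 and 3.38 on the 2,4-D arrays and between 3.21 and 3.27 on the DMSO arrays. After centring on each set, the DMSO columns of the 2,4-D and imazalil sets correlated at 0.867 to 0.878 number by number, so those columns are the same arrays normalized again. Those of the fenbuconazole set reached no more than 0.198, although the labels call the vehicle columns of all 3 sets common controls and give them the same numbers, so whether they are the same arrays is not settled.

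No probe set was called at 10 µM 2,4-D. With limma, the replicate number as a block and Benjamini-Hochberg adjustment over all probe sets, 0 of 54613 passed at 0.05 (0%), and the smallest adjusted p was 0.709. An unadjusted p under 0.05 was found for 2474 probe sets (4.53%), of which 1081 were higher (1.98%) and 1393 lower (2.55%). A p spread evenly between 0 and 1 would give 2731. The values of the groups did not overlap for 3831 probe sets (7.01%), 1758 higher (3.22%) and 2073 lower (3.8%) at 10 µM 2,4-D. In all 3 pairs of arrays, 12206 moved the same way (22.3%). With 3 arrays per group, many probe sets meet both criteria even where nothing changes, so these counts show no effect. Measured changes ran between -0.71 and 0.59 on the log2 scale, and 23 probe sets exceeded 0.5 in size, of which 2 were clearly measured, FAM149B1 (0.54) and FAXC (0.54), picked out by that size. The largest named changes lay close to the floor of the array. SOCS6, a suppressor of cytokine signalling, had -0.61 at a level of 4.19, and ZBTB11-AS1, an antisense transcript, had 0.59 at a level of 3.85.

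The lower concentrations gave similar counts against the same 3 DMSO arrays. Between 0.001 and 3 µM, 2162 to 3564 probe sets had an unadjusted p under 0.05, so that 10 µM stood inside this range. At the other 8 concentrations 1 call was made, GNL1 at 0.03 µM (0.58, SE 0.087, adjusted p 0.0471), at a level of 2.83. At 10 µM the same probe set had 0.17. The spread of changes over all probe sets (SD) was 0.119 at 10 µM and 0.117 to 0.135 at the other concentrations.

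The 8 genes per direction with the smallest p were read array by array, as a description, since p chose them. All 16 had an adjusted p of 0.709, changes between 0.35 and 0.59 in size and no overlap between the groups. In 14 of them the level was under 5. PTCHD1, a membrane protein with a patched domain, had log2 levels of 3.09, 3.07 and 2.79 at 10 µM 2,4-D and 2.51, 2.40 and 2.50 in DMSO, a change of 0.51 (SE 0.096). All 9 concentrations lay above DMSO for this probe set, by 0.20 to 0.51, and they share the DMSO arrays. MDM4, an inhibitor of p53, had 5.10, 5.28 and 5.20 at 10 µM 2,4-D and 4.71, 4.85 and 4.65 in DMSO. Its change was 0.46 (SE 0.090).

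Of the 16, 2 were clearly measured, and both had lower levels at 10 µM 2,4-D. TRIM37, a ubiquitin ligase, had 5.46, 5.48 and 5.72 at 10 µM 2,4-D and 6.02, 5.96 and 5.98 in DMSO (change -0.43, SE 0.094). GJC1, a connexin of gap junctions, had 5.90, 5.65 and 5.73 at 10 µM 2,4-D and 5.93, 6.30 and 6.31 in DMSO (change -0.42, SE 0.097). In the first pair of GJC1 the values differed by little, and in the other 2 pairs the 2,4-D array was clearly lower. CEBPD, a transcription factor of the acute phase response, had 4.45, 4.78 and 4.57 at 10 µM 2,4-D and 4.86, 5.08 and 5.13 in DMSO (change -0.42, SE 0.095). SNORC, a proteoglycan of cartilage, had 2.99, 3.37 and 3.23 at 10 µM 2,4-D and 3.77, 3.57 and 3.61 in DMSO (change -0.46, SE 0.099).

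**Figure D1:**
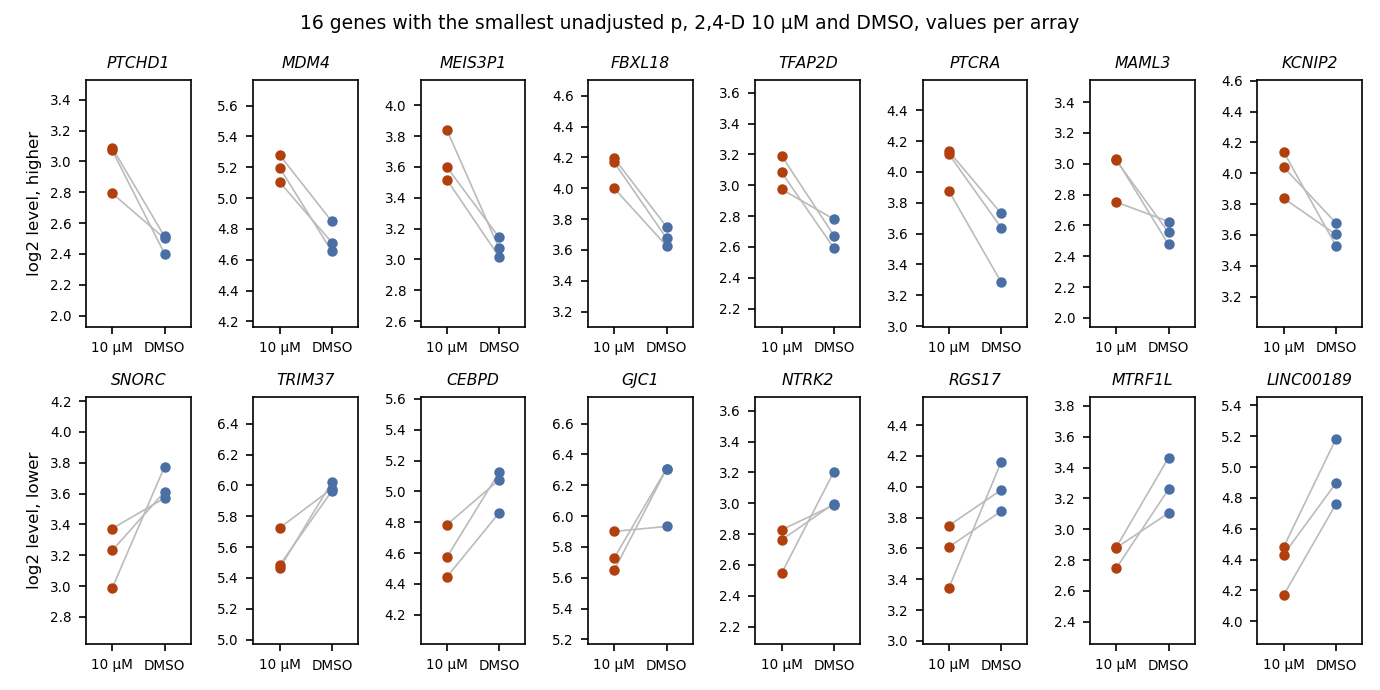
Log2 level of each array (vertical axis, of the same span in every panel) for the 16 genes with the smallest unadjusted p, with 10 µM 2,4-D in orange on the left, DMSO in blue on the right and lines joining the same replicate number. The groups do not overlap in any panel, and 14 of the 16 panels show probe sets with a mean level under 5.

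Other probe sets of the same genes did not carry these changes. Of the 16 genes, 13 had further probe sets, 35 in all. Of these 35, 15 moved in the direction of the first probe set, 0 did so with an unadjusted p under 0.05, and the median change in that direction was -0.03. Only 11 of the 35 were clearly measured, of which 4 moved in that direction, and the rest were under a level of 5. The largest change in that direction was 0.149, and none of the 35 reached the near end of the first probe set's 95% interval. TRIM37 had a second probe set at a level of 9.13 with a change of 0.12 (95% interval -0.01 to 0.24). The 6 further probe sets of MDM4 ran between -0.205 and 0.034, and the brightest of them, at 8.14, had -0.06 (-0.24 to 0.12). The further probe set of PTCHD1 had -0.09, and that of SNORC 0.13. For NTRK2, the receptor of brain-derived neurotrophic factor, the first probe set had -0.35 and the other 5 ran between -0.13 and 0.13. Probe sets of 1 gene can read different transcripts, and those of MEIS3P1, FBXL18 and MTRF1L are of a design that may match several genes.

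**Figure D2:**
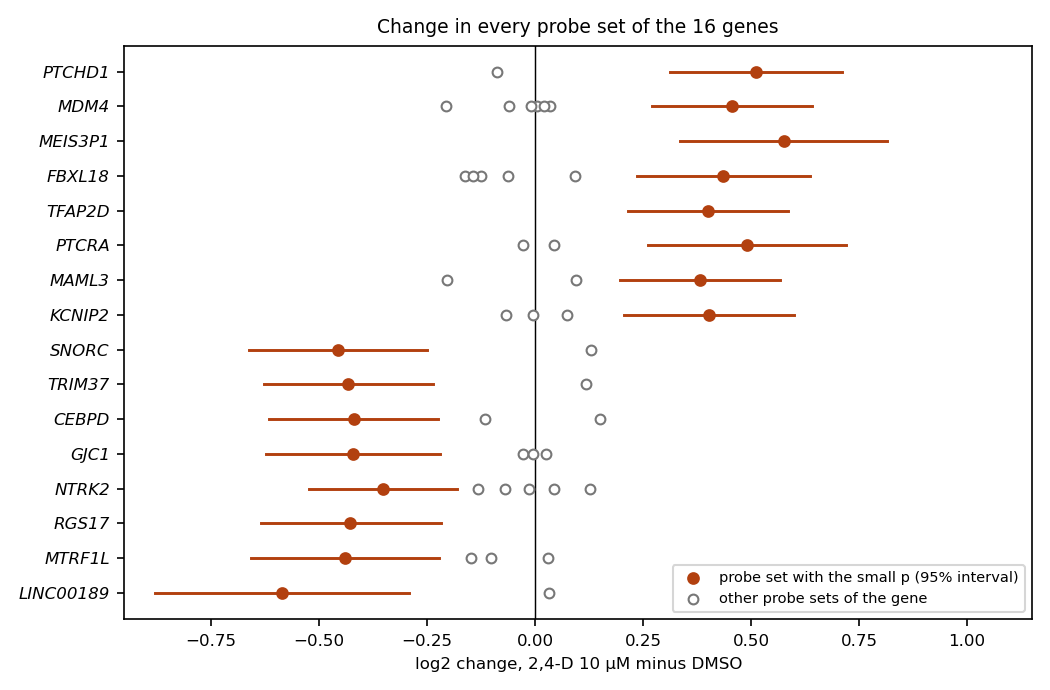
Log2 change, 10 µM 2,4-D minus DMSO, for every probe set of the 16 genes, with the probe set of smallest p as a filled point and its 95% interval as a line, and the others as open points. The 35 open points lie between -0.205 and 0.151, and none of them reaches the line of its gene.

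How large a change could have been missed depended on the level of the probe set. For the median probe set the SE of the change was 0.112, and its 95% interval reached 0.231 to either side, a fold of 1.17. To be called alone among 54613, a probe set needed a p of 9.16e-07, hence a change of 0.741 at the median SE (1.67-fold), and a true change of 0.864 (1.82-fold) would have been found with 80% power. Had 100 probe sets changed together, the needed p would have been 9.16e-05, the change 0.529 (1.44-fold), and the change found with 80% power 0.637 (1.56-fold). The largest t in the data was 5.33, against 6.63 needed alone and 4.73 needed for 100 together. The SE comes from the fit to 30 arrays, and the change needed alone became 1.49 with the 6 arrays alone and 1.05 to 1.13 without 1 replicate. At the median SE, a change of 1.5-fold in a single probe set lay below what a call needed.

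Clearly measured probe sets were read more tightly. Their median SE was 0.0864, the interval reached 0.179 (1.13-fold), and a change of 0.667 (1.59-fold) would have been found alone with 80% power, or 0.492 (1.41-fold) as 1 of 100. The tightest were the brightest of all probe sets, at levels between 6.41 and 13.6, where a change of 0.606 (1.52-fold) would have been found alone with 80% power. The widest were those between 3.41 and 6.41, where the same power needed 1.04 (2.05-fold). Over all probe sets, 29.1% needed more than a 2-fold change to be found alone with 80% power, and 4.48% as 1 of 100. Among the brightest these shares were 3.6% and 1.17%.

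**Figure D3:**
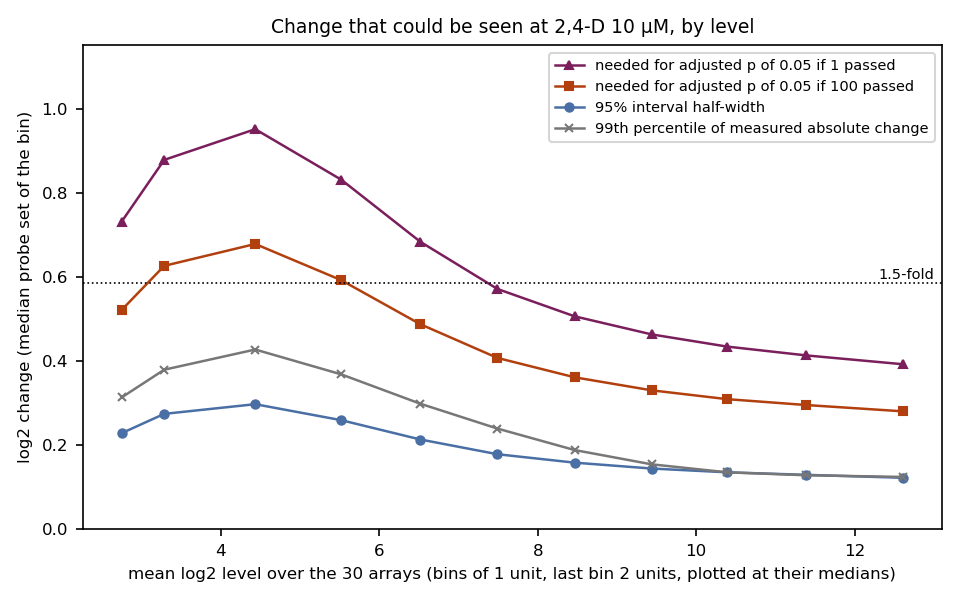
Log2 change (vertical axis) against the mean log2 level of the probe sets (horizontal axis, bins), with the change needed for a call alone (triangles) and as 1 of 100 (squares), the reach of the 95% interval (circles) and the 99th percentile of the measured absolute change (crosses). Needed changes are largest in the bin at a median level of 4.43, 0.951 alone and 0.678 as 1 of 100, and smallest in the brightest bin, 0.392 and 0.28, and the crosses stay below both lines in every bin.

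The single intervals also bound the genes. The 95% interval, not adjusted over probe sets, lay within 1.5-fold of no change for 52829 of 54613 probe sets (96.7%) and for 18310 of 18626 clearly measured ones (98.3%). It reached beyond 2-fold in 40 probe sets, 20 of them clearly measured. The widest among these belonged to YBX3, a cold shock domain protein (0.25, interval -0.74 to 1.23), and to 1 probe set of the cell cycle kinase CDK1 (0.20, -0.78 to 1.18), both named after their values were seen. For these, neither a rise of 2-fold nor its absence was measured. Among clearly measured genes, 42.1% were higher and the median change was -0.0135.

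The 35 pathway lists held 620 genes, of which 568 were measured and 453 clearly measured. None of the 453 was called. An unadjusted p under 0.05 was found for 3 higher and 9 lower genes, 2.65% of them, beside 2.76% of all 9595 clearly measured genes. The 95% interval lay within 1.5-fold for 451 of 453 (99.6%, beside 99.4% of all), and for none did it reach beyond 2-fold. For each list the mean over its clearly measured members was taken per array, and an interval adjusted over the 35 lists (99.86%) was set against a margin of 1.2-fold, 0.263 on the log2 scale. Of the 35 lists, 29 had 5 or more such members, and 28 of the 29 were bounded within 1.2-fold. A bounded mean does not bound each member of its list. These intervals use the spread of all 30 arrays of the set. With the 6 arrays alone 5 lists were bounded, and without the replicate block 23. Within 1.1-fold the count was 24. List means ran between -0.0784 and 0.0237, and no list had a 95% interval that left out 0.

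**Figure D4:**
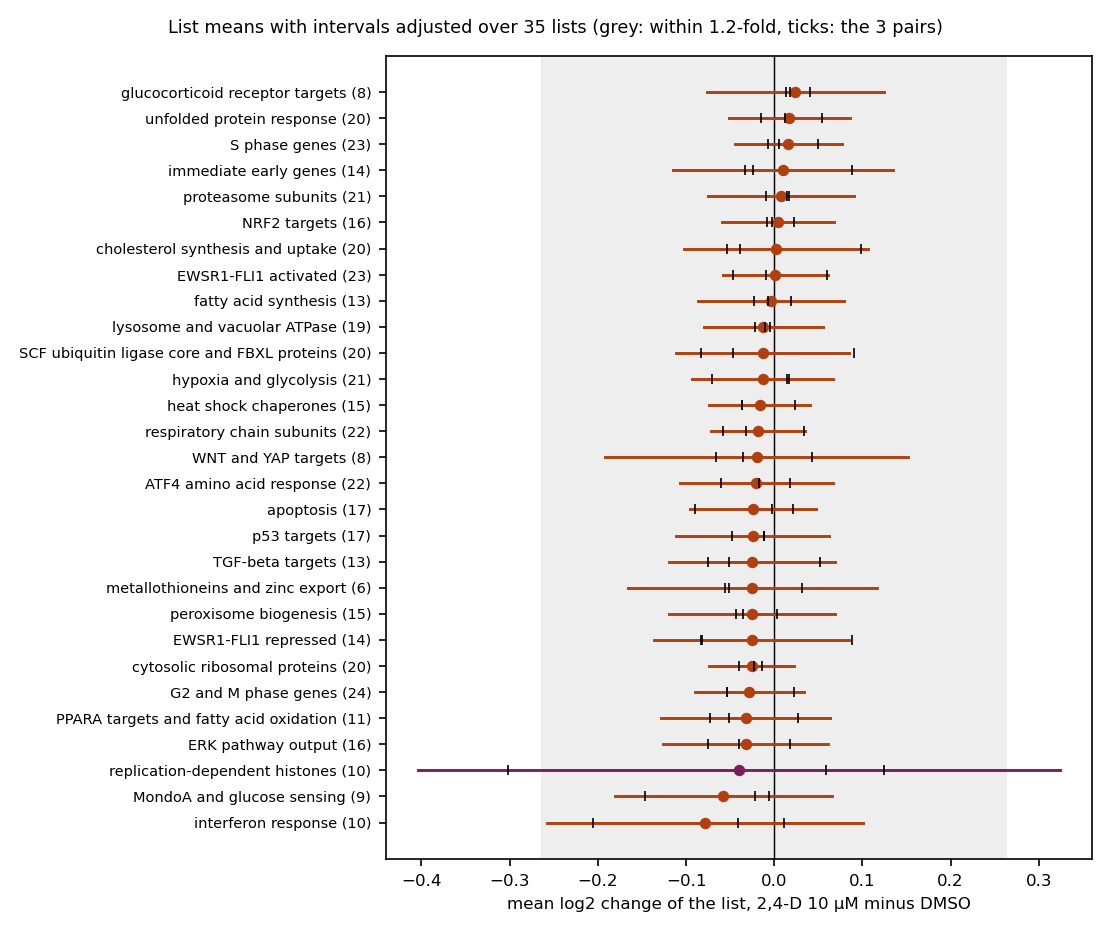
Mean log2 change of 29 gene lists, 10 µM 2,4-D minus DMSO (points), with intervals adjusted over 35 lists (lines), the 3 pairs of arrays as ticks, the number of clearly measured members in brackets and the margin of 1.2-fold in grey. All lists but the replication-dependent histones, whose interval runs from -0.404 to 0.324, stay inside the grey band.

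For genes of fatty acid oxidation and PPARA, the mean was bounded close to no change. The list mean was -0.0322 (adjusted interval -0.128 to 0.0635, or -8.49% to 4.5%) over 11 clearly measured members of 20, 4 higher and 7 lower. CPT1A, the carnitine transferase that limits entry of fatty acids into mitochondria, had 8.52, 8.69 and 8.22 at 10 µM 2,4-D and 8.58, 8.51 and 8.69 in DMSO. The groups overlapped, and the change was -0.12 (95% interval -0.29 to 0.05). SLC25A20, the carnitine carrier, had the largest change of the list, -0.15 (-0.39 to 0.10). The targets that respond most to PPARA in liver were near the floor: PDK4 at 3.14 (change -0.14), PLIN2 at 3.28 (-0.10) and ANGPTL4 at 4.67 (0.23, interval -0.14 to 0.605). For these, the interval bounds the probe signal only, and 9 of the 20 measured members were in that range, at levels of 2.60 to 4.67.

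Peroxisome biogenesis had a mean of -0.025 (-0.119 to 0.0692) over 15 members, with 3 higher and 12 lower. PEX10, a ubiquitin ligase of peroxisomal import, had -0.205 (95% interval -0.425 to 0.014), and ACBD5, a tether of peroxisomes to the endoplasmic reticulum, had -0.185 (-0.357 to -0.012) with an unadjusted p of 0.0369. The peroxisomal catalase gene CAT had 10.25, 10.32 and 10.19 at 10 µM 2,4-D and 10.24, 10.28 and 10.06 in DMSO, a change of 0.06 (-0.08 to 0.19).

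The SCF ubiquitin ligase core with the FBXL proteins, the animal counterparts of the plant receptor complex, had a mean of -0.013 (-0.111 to 0.0846) over 20 members, 11 higher and 9 lower. SKP1, the adaptor of the complex, had 12.58, 12.63 and 12.62 at 10 µM 2,4-D and 12.49, 12.61 and 12.52 in DMSO (0.07, 95% interval -0.06 to 0.20). The scaffold CUL1 had 0.02 (-0.13 to 0.16), and the RING protein RBX1 0.02 (-0.10 to 0.14). FBXL18 had the largest change of the list in its brightest probe set, -0.14 (-0.41 to 0.12). Of its 6 probe sets, 2 were higher and 4 lower. The probe set among those with the smallest p, at a level of 3.85, had 0.44.

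The means of the lipid synthesis lists were bounded as well. Cholesterol synthesis and uptake had a mean of 0.0022 (-0.102 to 0.106) over 20 members. CYP51A1, the human lanosterol demethylase, had 9.98, 10.00 and 9.87 at 10 µM 2,4-D and 10.02, 9.95 and 9.62 in DMSO (0.09, 95% interval -0.11 to 0.28), and the third DMSO array was the lowest of the 6. HMGCS1, an early enzyme of the pathway, had -0.08 (-0.27 to 0.11), and INSIG1, the sterol sensor that retains SREBP, -0.02 (-0.165 to 0.125). Fatty acid synthesis had a mean of -0.0039 (-0.0865 to 0.0787) over 13 members. In that list FASN, the fatty acid synthase, had 7.24, 7.34 and 7.32 at 10 µM 2,4-D and 7.52, 7.42 and 7.54 in DMSO. Its change was -0.19 (-0.36 to -0.03, unadjusted p 0.0233). The groups did not overlap, but FASN lay below DMSO at all 9 concentrations, by 0.06 to 0.21. PNPLA3, a lipase of lipid droplets, was 1 of the 2 clearly measured pathway genes whose interval left the 1.5-fold margin (0.225, -0.21 to 0.66). The other was the linker histone gene H1-2 (0.10, -0.43 to 0.64).

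Stress programmes gave no called member. The ATF4 amino acid response had a mean of -0.0202 (-0.107 to 0.0665) over 22 members, 8 higher and 14 lower. ASNS, asparagine synthetase, had 10.85, 10.95 and 10.67 at 10 µM 2,4-D and 10.93, 10.99 and 10.74 in DMSO (-0.06, 95% interval -0.20 to 0.07). TRIB3 and DDIT3, regulators of the same response, had -0.11 each (-0.29 to 0.06 and -0.26 to 0.05). DDIT4, an inhibitor of mTORC1, had 0.15 with an unadjusted p of 0.0495. At 0.3, 1 and 3 µM the ATF4 list had means of 0.0568, 0.0487 and 0.0668, each with a 95% interval above 0. These intervals were not adjusted over lists or concentrations. Some intervals of other lists left out 0 as well, such as lysosome and vacuolar ATPase at 0.001 µM (-0.0957 to -0.0204). A rise of the ATF4 list at lower concentrations was therefore not established, and its mean at 10 µM lay below 0. The unfolded protein response had 0.0172 (-0.0517 to 0.0861), with the chaperone HSPA5 at 0.03 (-0.10 to 0.16).

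Heat shock chaperones had a mean of -0.0165 (-0.0738 to 0.0409), with HSPA1A, the inducible member of the family, at 0.07 (-0.08 to 0.215). NRF2 targets had 0.0043 (-0.0594 to 0.068), with the quinone reductase NQO1 at 0.02 (-0.12 to 0.17). HMOX1, which degrades haem, was dim at 4.05 and had -0.12 (-0.40 to 0.17). Metallothioneins and zinc export had -0.0249 (-0.166 to 0.117) over 6 members. For p53 targets the mean was -0.024 (-0.111 to 0.0627). A673 is p53-defective, so this interval bounds the mean level of these genes and not a p53 response. The cell cycle inhibitor CDKN1A had 6.33, 6.36 and 6.42 at 10 µM 2,4-D and 6.59, 6.44 and 6.49 in DMSO. These did not overlap, and the change was -0.14 (-0.29 to 0.01). CDKN1A was below the same DMSO arrays at all 9 concentrations, with values between -0.168 and -0.0755. MDM2, the ligase for p53, had -0.14 (-0.30 to 0.03) in its brightest probe set. Its 9 probe sets ran between -0.138 and 0.212, with 3 higher and 6 lower.

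Means of the growth and energy lists were bounded close to no change too. Immediate early genes had a mean of 0.0104 (-0.115 to 0.135), with EGR1 at -0.04 (-0.22 to 0.15) in its brightest probe set. ERK pathway output had -0.0324 (-0.126 to 0.0615), with CCND1, cyclin D1, at -0.05 (-0.19 to 0.09). S phase genes had 0.0162 (-0.0441 to 0.0765), and G2 and M phase genes -0.0282 (-0.0903 to 0.0339), with the proliferation marker MKI67 at -0.09 (-0.25 to 0.08). Of the 29 lists, those bounded closest to 0 were the genes activated by EWSR1-FLI1 (0.0013, -0.0581 to 0.0607), NRF2 targets, respiratory chain subunits (-0.0186, -0.0722 to 0.035) and cytosolic ribosomal proteins (-0.0257, -0.0736 to 0.0223). In these 4 lists no end of an interval lay beyond -4.97% or 4.83%.

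MondoA and glucose sensing was the 1 list of 29 whose array means did not overlap. Among all probe sets 7.01% did not overlap, a share that 1 list of 29 does not exceed. They were 7.453, 7.451 and 7.403 at 10 µM 2,4-D and 7.475, 7.457 and 7.549 in DMSO, a mean change of -0.0581 (-0.181 to 0.0652), with pairs of -0.0223, -0.0059 and -0.146. At 1 µM the list mean lay on the other side, 0.0755 (95% interval 0.0066 to 0.144, not adjusted over lists or concentrations). At 0.1 and 3 µM it was 0.0542 and 0.051. Without replicate 1 or replicate 2 the list was no longer bounded. TXNIP, the arrestin that MondoA induces, had 7.78, 7.84 and 7.58 at 10 µM 2,4-D and 7.79, 7.94 and 7.54 in DMSO (-0.03, 95% interval -0.21 to 0.16).

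The means of interferon and histone genes were bounded least well. The interferon response had the lowest mean, -0.0784 (-0.258 to 0.101) over 10 members, and its pairs of arrays had -0.0416, 0.0116 and -0.205. It lay below DMSO at all 9 concentrations, by 0.0401 to 0.135, against the same 3 DMSO arrays. The list was not bounded without replicate 1, without replicate 2, without the replicate block, with equal medians or in the 6 arrays alone. OAS3, a sensor of double-stranded RNA, had -0.20 (unadjusted p 0.032), and the dim chemokine gene CXCL10 -0.32 (-0.62 to -0.02). The other probe set of OAS3, below a level of 5, had 0.06. Replication-dependent histones were the 1 list not bounded, with a mean of -0.0399 and bounds of -24.4% and 25.2%. Their pairs were 0.124, -0.302 and 0.0586, so that the second pair went against the other 2. In the same list H2BC8 (-0.29) and H2AC8 (-0.20) had unadjusted p-values of 0.0403 and 0.0405.

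Some single pathway genes had small unadjusted p-values, and none of them was called. CXCL8, the chemokine interleukin-8, had 6.55, 6.30 and 6.28 at 10 µM 2,4-D and 6.68, 6.53 and 6.88 in DMSO. The change was -0.32 (-0.52 to -0.12), its unadjusted p of 0.00308 was the smallest of the 453 pathway genes, and the groups overlapped. At 0.01 µM it had -0.29 against the same DMSO arrays. The other probe set of CXCL8, below a level of 5, had -0.04 at 10 µM. CTSD, the lysosomal protease cathepsin D, had 5.89, 5.87 and 5.99 at 10 µM 2,4-D and 6.32, 6.22 and 6.14 in DMSO (-0.31, -0.55 to -0.08, unadjusted p 0.0108). Against the same DMSO arrays it had -0.33 at 0.001 µM. PER1, a clock gene that glucocorticoids induce, had 5.39, 5.17 and 5.08 at 10 µM 2,4-D and 5.18, 4.87 and 4.75 in DMSO (0.28, 0.07 to 0.49, unadjusted p 0.0106). The groups overlapped, and this probe set was above DMSO at every concentration, by 0.19 to 0.32. Of the 3 probe sets of PER1, of which 1 was clearly measured, 1 was higher and 2 were lower, the lowest at -0.163. The glucocorticoid list as a whole had the highest mean, 0.0237 (-0.0765 to 0.124). CEBPD, a member left out of that mean for its level of 4.89, moved the other way.

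For 6 lists no bound was set, because fewer than 5 of their members were clearly measured. Organic anion transport and binding had 1 of 13, the exporter ABCC4 at 9.19 (change 0.01, 95% interval -0.12 to 0.15), and the other 12 lay between 2.67 and 3.30. Aryl hydrocarbon receptor targets had 4 of 10. Of these, the receptor AHR itself had -0.08 (-0.31 to 0.15), while CYP1A1 at 3.16 and CYP1B1 at 4.42, its classical targets, had -0.05 (-0.26 to 0.16) and -0.01 (-0.31 to 0.29). CAR and PXR targets, the drug-metabolism genes of liver, had 3 of 12, among them POR, the reductase of the cytochromes P450 (-0.15, unadjusted p 0.041). NF-kappaB targets had 3 of 15, oestrogen and androgen receptor targets 3 of 11, and thyroid hormone targets 1 of 9, the malic enzyme ME1 (0.03, -0.14 to 0.19). For these pathways the arrays bound the few members named and leave the rest unread.

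The pairs of arrays had small offsets that differed in sign. Over all 9595 clearly measured genes the mean change was -0.0159 (95% interval -0.0423 to 0.0106), and by pair it was -0.0227, 0.0284 and -0.0533. List means followed these offsets: 24 of 29 were below 0 in the first pair, 7 in the second and 24 in the third, and 5 had the same sign in all 3. With the offset of each array subtracted, 28 of 29 lists were bounded, as before.

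At 10 µM, 2,4-D was also set beside the azoles, each change being taken against its own DMSO columns. The difference between compounds was tested over all probe sets, with the shared DMSO arrays of the imazalil set counted as separate columns, which widens the SE. Against imazalil 1 of 54613 was called (0.00183%), and against fenbuconazole 1 (0.00183%). An unadjusted p under 0.05 was found for 775 probe sets against imazalil and for 2927 against fenbuconazole. A p spread evenly would give 2731, so the test against imazalil was strict, and a missing call there does not show likeness. CPT1A had -0.12 under 2,4-D and 0.66 (95% interval 0.46 to 0.85) under imazalil, a difference of -0.78 (SE 0.123, adjusted p 0.00794). Between 2,4-D and fenbuconazole CPT1A differed by 0.06 (-0.17 to 0.30). EGR1, an immediate early transcription factor, had 0.06 under 2,4-D and -0.67 (-0.87 to -0.48) under fenbuconazole in 1 probe set, a difference of 0.74 (SE 0.111, adjusted p 0.00277). Its brightest probe set differed by 0.71 (0.41 to 1.01), with an adjusted p of 0.236. Neither call held in the fits without the replicate block or without any 1 replicate number.

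**Figure D5:**
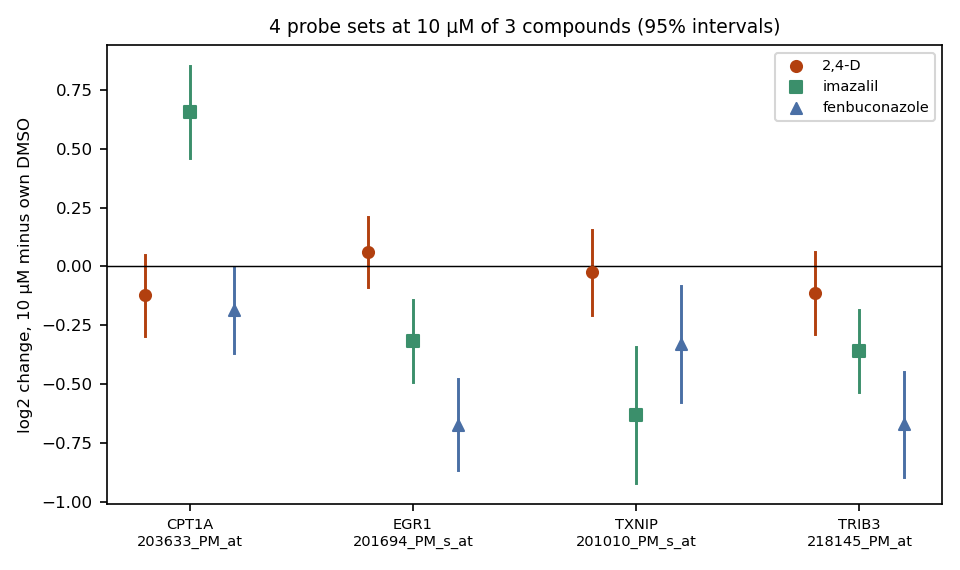
Log2 change at 10 µM against each compound's own DMSO columns (vertical axis) for 1 probe set each of CPT1A, EGR1, TXNIP and TRIB3, with 2,4-D (circles), imazalil (squares) and fenbuconazole (triangles) and 95% intervals as lines. All 4 intervals of 2,4-D hold 0, while CPT1A (0.66) and TXNIP (-0.63) under imazalil and EGR1 (-0.67) and TRIB3 (-0.67) under fenbuconazole lie apart from it. Intervals of EGR1 (-0.49 to -0.14) and TRIB3 (-0.53 to -0.19) under imazalil also leave out 0. So do those of TXNIP (-0.58 to -0.08) and CPT1A (-0.37 to -0.0013) under fenbuconazole. Each of the 4 genes had a probe set called for an azole.

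TXNIP had -0.03 under 2,4-D, -0.63 (-0.92 to -0.34) under imazalil and -0.33 (-0.58 to -0.08) under fenbuconazole, and neither difference was called. Among the lists, the ATF4 response was the 1 whose difference between 2,4-D and each azole had an interval that left out 0. Its mean was -0.0202 under 2,4-D, -0.165 (-0.264 to -0.0665) under imazalil and -0.275 (-0.401 to -0.149) under fenbuconazole. The differences were 0.145 (0.0243 to 0.266) and 0.255 (0.115 to 0.395). The lists were chosen with earlier results of these data known, so this separation describes these arrays and is no independent test. Under the same margin 28 of 29 lists were bounded for 2,4-D, 26 for imazalil and 23 for fenbuconazole. These counts depend also on the width of the intervals. For the PPARA list it was -0.257 to 0.176 under fenbuconazole and -0.128 to 0.0635 under 2,4-D. A bounded mean can also hold a called member. Under imazalil the PPARA list was bounded (0.0629, -0.0484 to 0.174), while its member CPT1A was called with 0.66. The interval left out 0 for 2 lists under imazalil and 1 under fenbuconazole. The azole arrays passed the same steps, and they called 2 probe sets for imazalil (0.00366%) and 4 for fenbuconazole (0.00732%) against their own DMSO columns.

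With the other 8 concentrations of 2,4-D in place of DMSO, 1 probe set was called. It read the zinc finger gene ZNF813, chosen here by that result, at 5.86 to 5.96 at 10 µM 2,4-D and 6.06 to 6.53 in DMSO. The means of the other concentrations lay between 6.37 and 6.58, and each of the 3 arrays at 10 µM was below every other array of the set. Against the 8 concentrations the difference was -0.58 (SE 0.086, adjusted p 0.0372), and against DMSO the change was -0.45, with an unadjusted p of 0.000757.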

How the data were processed

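Levels are on the log2 scale as deposited. The authors had obtained them in Partek by RMA (robust multi-array averaging), separately for the 30 columns of each chemical, and no tool version is given in the sources used here. RMA corrects background, equalizes the distributions of the arrays within a set and summarizes probes, so levels have no meaning across sets, a change common to all genes is removed, and changes of dim probe sets are compressed. Of 54715 rows, 102 manufacturer controls were left out. By the platform annotation, 40914 probe sets had 1 symbol, 864 several and 12835 none. A gene was represented by its probe set with the highest mean.

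Changes were fitted with limma 3.58.1 (R 4.3.3, with the data.table package, version 1.17.8) in 1 model over the 30 arrays of the 2,4-D set (18 residual and 23 total degrees of freedom), with group and replicate number as terms, with Benjamini-Hochberg adjustment over all probe sets. The block was set by the definition of the comparison. The methods describe the replicates as separate batches of cells, the labels do not, and the deviations of same-numbered arrays at 10 µM and DMSO correlated at 0.174, -0.0107 and 0.233, while 30 of 30 arrays were closest to an array of their own number. P-values measure the spread between these arrays. Power was computed from the noncentral t. List means were fitted by an ordinary linear model. The fit and the power were checked on simulated data. The members and lists were chosen with earlier results of these data known. Named genes were the 8 per direction with the smallest p, the 2 members of each list with the largest change among those at a level of 5 or more, a fixed set of genes, and the differences between compounds that passed. NR0B1 of that set had no probe set named here. Python 3.11.15 drew the figures (numpy 2.4.6, pandas 2.3.3, matplotlib 3.10.9). The alternatives are given in the closing section, and 2 of them, lists centred on each array and lists without their most changed member, were chosen after seeing the data.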

Additional observations from a re-analysis of the deposited data

Results flagged for a closer look

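At 10 µM, the change of CPT1A in its brightest probe set under 2,4-D minus that under imazalil was -0.777 (SE 0.123, adjusted p 0.00794), by a test of the difference itself. The other 3 probe sets of CPT1A had -0.14, -0.04 and -0.22 under 2,4-D. EGR1 in 1 probe set differed between 2,4-D and fenbuconazole by 0.735 (SE 0.111, adjusted p 0.00277), by the same kind of test. The labels call the DMSO columns of the fenbuconazole and 2,4-D sets common controls, but they correlated at no more than 0.198, so whether the second difference rests on the same vehicle arrays is not settled.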

How the results depend on the processing

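No alternative made a probe set called at 10 µM 2,4-D against DMSO: the count was 0 without the replicate block (2105 with an unadjusted p under 0.05), in the 6 arrays alone (2014), for probe sets at a level of 5 or more (852), with trend and robust (2366), with 1 probe set per gene (883), with equal medians (2506), with array weights (1897) and without replicates 1, 2 or 3 in turn (0 to 0, with 2316 to 3513). With the other 8 concentrations as the reference it was 1 (4048). The change needed for a call alone, 0.741, became 1.49 in the 6 arrays alone, which leave few degrees of freedom, 0.504 for probe sets at 5 or more, and 1.05 to 1.13 without 1 replicate. The count of probe sets within 1.5-fold, 52829, was 18312 and 19332 where fewer were tested, those at 5 or more and 1 per gene, and 47678 to 49608 without 1 replicate (87.3% to 90.8%).

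Of 29 lists, 28 were bounded, but only 5 in the 6 arrays alone, whose intervals are wide, and 24 to 28 without 1 replicate. Without the replicate block 23 were bounded, the losses being the ATF4 response, metallothioneins, the interferon response, TGF-beta targets and glucocorticoid targets. The other settings bounded 27 or more, except the tighter margin of 1.1-fold, with 24. The interferon list lost its bound without replicate 1 (-0.397 to 0.204), without replicate 2 (-0.393 to 0.146) and with equal medians (-0.264 to 0.0954). Lists of MondoA and of WNT and YAP targets also lost theirs without replicate 1 and without replicate 2, and metallothioneins without replicate 2. The histone list turned to 0.0914 without replicate 2 and to 0.0307 with members at 7 or more only, and the cause was not tested. Of 119 named probe sets, 0 passed in any setting, and 102 to 119 kept their direction.

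The call against imazalil was lost without the replicate block (0) and without each replicate (0 to 0), and that against fenbuconazole was 0 without the block and 0 to 1 without 1 replicate, where the 1 was another probe set. The difference for CPT1A stayed between -0.866 and -0.666, and that for EGR1 between 0.681 and 0.796. The 1 call at the other 8 concentrations of 2,4-D was 0 without the block and 0 to 0 without 1 replicate. Among the comparisons refitted without the block, no other call changed.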
